A study of Mus musculus with 6 samples.

Results

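Integrins, laminins and the structural genes of basement membranes were followed in sorted stromal cells of mouse bone with and without Zeb1. The set comprised every protein-coding row of the deposited gene table that names an integrin alpha or beta gene (Itga or Itgb followed by a number or letter, leaving out the binding proteins of Itgb1 and Itgb3), a laminin alpha, beta or gamma chain, a collagen IV chain, a nidogen (Nid1, Nid2), perlecan (Hspg2) or agrin (Agrn). The rule found 49 of 54532 genes. The 48 described here, called members below, were 28 integrin genes, 10 laminin chains, 6 collagen IV chains and 4 nidogens and proteoglycans. Itgbl1, which fits the name rule, encodes a secreted integrin-like protein and not a receptor subunit. Cells came from chips of femur and tibia digested with collagenase and cultured, and were sorted by reporter fluorescence. All mice carried Prx1-Cre, a recombinase driven in limb mesenchyme, together with the ROSA-YFP reporter, and all were untreated. On this background, WT mice were Zeb1wt/wt and Zeb1Prx1 mice were Zeb1fl/fl, so that Cre removes Zeb1 in cells where it is active. The labels give no age and do not tie the 3 libraries of a genotype to different animals or cultures. The p-values therefore reflect library-to-library spread alone, which may be technical.

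Integrins are surface receptors made of 1 alpha and 1 beta subunit that attach cells to matrix or to other cells. The alpha subunit largely sets the ligand: collagens, laminins, or proteins such as fibronectin and vitronectin with an arginine-glycine-aspartate motif (RGD). Laminins are trimers of an alpha, a beta and a gamma chain that lay down the first sheet of a basement membrane, and collagen IV forms its covalent network. Nidogens, perlecan and agrin connect these networks. In bone, basement membranes surround vessels and marrow adipocytes, while Zeb1, a zinc-finger repressor, is best known for silencing epithelial genes during epithelial-mesenchymal transition.

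Values are FPKM (fragments scaled by gene length and library size) from libraries of 14724357 to 18354894 fragments. Zeb1 had 6.61, 10.3 and 7.12 FPKM in WT replicates 1 to 3 against 1.92, 1.59 and 2.84 in Zeb1Prx1 replicates 1 to 3, so the targeted transcript was lower in each mutant library (limma adjusted p = 0.229, not passing; 0.042 with library weights). The 8 stromal genes summed to 1990 to 2634 FPKM in WT and 2308 to 4502 in Zeb1Prx1, mostly from Col1a1 and Col1a2. Col1a2 lay higher without overlap (465, 611 and 641 FPKM against 1054, 676 and 923). Pdgfrb lay lower without overlap (33.4, 32.8 and 36.9 against 30.4, 20.9 and 19.9), and the others overlapped. Among these, Thy1 had 32.9, 17.1 and 44.1 FPKM in WT against 3.78, 17.7 and 14.7 in Zeb1Prx1. Pdgfra ranged from 2.65 to 47.0 FPKM and Lepr from 0.130 to 1.26 over the 6 libraries. Also abundant was the macrophage list, whose 10 genes summed to 9998 to 12547 FPKM in WT and to 8463, 18294 and 10394 in Zeb1Prx1. The Y-linked gene Ddx3y had 4.45 to 8.19 FPKM in WT against 14.6 to 21.9 in Zeb1Prx1, and Xist 26.8 to 40.4 against at most 12.6; the part of sex in the values below was not tested. Zeb1Prx1 replicate 2 stood apart by transcript length. Its median log2 deviation from the mean of the 6 libraries was -0.24 over the 4724 tested genes of at least 5000 bases. Over the 2693 genes under 2000 bases it was 0.43. For the long genes the WT libraries had 0.054, 0.099 and 0.072, and Zeb1Prx1 replicates 1 and 3 had 0.041 and -0.043. For the short genes these values were -0.10, -0.17 and -0.15 against -0.058 and 0.065. Each Zeb1Prx1 library thus lay below each WT library for long genes and above each for short genes. Most genes described here are long: 25 of the 32 tested members have at least 5000 bases. The part of this shift in the lower values was not tested.

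Genotypes were compared with limma on log2(FPKM + 1) over the 12534 genes that reached an FPKM of 1 in 3 libraries or more. Of the 48 members, 32 reached this filter, and 0 passed an adjusted p of 0.05 in either direction (background 0% of genes higher and 0% lower). The log2 change, Zeb1Prx1 minus WT, was above 0 for 11 members and below 0 for 21, with a median of -0.26, beside 51.9% above 0 and a median of 0.02 over all genes. Without Zeb1Prx1 replicate 2 the member median was -0.15, with 10 above 0 and 20 below. At an unadjusted p under 0.05, 3 members were higher and 10 lower, beside 8.15% and 6.98% of all genes; without Zeb1Prx1 replicate 3, 1 was higher and 6 were lower. The genotypes did not overlap for 1 tested member on the higher side and 9 on the lower, beside 12.6% and 11.8% of all genes. Among tested genes of at least 5000 bases these background shares were 4.81% and 20.3%. Lamb3, the member on the higher side, reached the filter only through the Zeb1Prx1 libraries and therefore had to differ, so the counts among tested members are descriptions. With library weights, limma called 4 members (Lamb3 and Itga3 higher, Itga6 and Itgb2 lower; adjusted p between 0.0328 and 0.0498), beside 2.14% of genes higher and 1.43% lower. Those weights were 2.82 for Zeb1Prx1 replicate 3 and 0.226 for Zeb1Prx1 replicate 2.

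**Figure D1:**
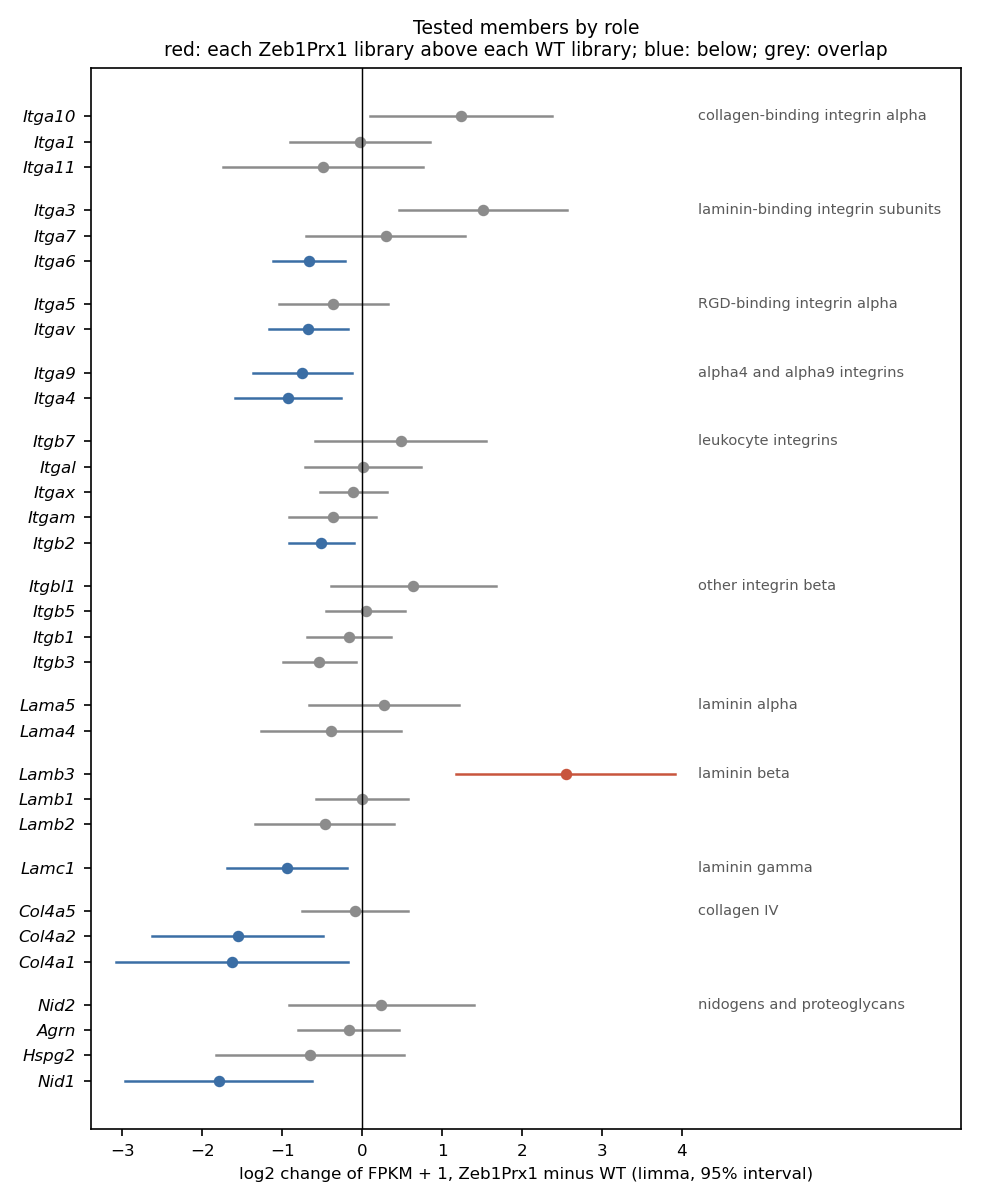
Log2 change of FPKM + 1 (x axis, Zeb1Prx1 minus WT) for the 32 tested members grouped by role, as points with the 95% interval of limma, n = 3 libraries per genotype. Lamb3 (2.55) lies to the right without overlap of the libraries, and 9 members, led by Nid1 (-1.79), lie to the left; none passed after adjustment.

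The highest log2 change among tested members was that of Lamb3, the beta chain of a laminin that anchors epithelial cells. Since Lamb3 reached the filter only through the Zeb1Prx1 libraries, its values are a description. Lamb3 (mm10 chromosome 1, 193207699 to 193343878), had 0.0331, 0.669 and 0.0886 FPKM in WT against 12.2, 1.70 and 9.53 in Zeb1Prx1. Each mutant library lay above each WT library, although replicate 2 was far below the other mutant libraries. In fragments these were 4, 68 and 9 against 1293, 203 and 962, so WT replicate 2 held most of the WT signal. The mean was 0.264 ± 0.352 (SD, n = 3) against 7.80 ± 5.44 FPKM, with a log2 change of 2.55 (SE 0.58, limma adjusted p = 0.259). This was 29.6-fold, and from 20.6-fold without WT replicate 1 to 128-fold without WT replicate 2 over the left-out libraries. With any 1 Zeb1Prx1 library left out, Lamb3 fell under the filter and was not tested. Lamb3 made up 0.079, 1.15 and 0.152% of the summed FPKM of the 3 laminin beta genes in WT and 20.3, 5.22 and 17.0% in Zeb1Prx1, a measure chosen after the values were seen and given as a description.

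Lama3, the alpha chain of the same laminin (chromosome 18, 12333819 to 12583013), stayed under the filter, with 0.0864, 0.218 and 0.0485 FPKM against 0.226, 0.0207 and 0.292. Its libraries overlapped, with 4 to 48 fragments each, and the ratio of fragments scaled by library totals was 1.42 (95% counting interval 1.02 to 2.001). In mean FPKM it was 1.53-fold, 2.66-fold without WT replicate 2 and 1.05-fold without Zeb1Prx1 replicate 3. Such intervals cover counting error only.

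Subunits of the receptors for this laminin differed in direction. Itgb4, which pairs with Itga6 in hemidesmosomes (chromosome 11, 115974709 to 116008412), had 13, 17 and 27 fragments in WT and 409, 51 and 380 in Zeb1Prx1. These correspond to 0.101, 0.158 and 0.251 FPKM against 3.63, 0.403 and 3.55, again with replicate 2 as the lowest mutant library and no overlap. The scaled fragment ratio was 14.1 (counting interval 10.7 to 18.7), and the gene was not tested because only 2 libraries reached an FPKM of 1. Itga3, the alpha subunit of a laminin receptor with Itgb1 (chromosome 11, 95044474 to 95076801), had 8.04, 3.49 and 2.35 FPKM in WT against 17.7, 7.76 and 18.3 in Zeb1Prx1. WT replicate 1 lay above Zeb1Prx1 replicate 2, so the genotypes overlapped (4.62 ± 3.01 against 14.6 ± 5.91 FPKM, 3.15-fold, 5.00-fold without WT replicate 1, log2 change 1.51, SE 0.44, limma adjusted p = 0.275). Itga6, the partner of both Itgb1 and Itgb4 (chromosome 2, 71745616 to 71858416), was lower, with 34.7, 43.4 and 37.8 FPKM in WT against 30.4, 20.5 and 21.9 in Zeb1Prx1. It did not overlap (38.6 ± 4.42 against 24.3 ± 5.35, log2 change -0.66, SE 0.19, limma adjusted p = 0.275) and stayed the more abundant partner, beside a mutant mean of 2.53 ± 1.84 FPKM for Itgb4.

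Itgb6, the epithelial partner of Itgav that binds latent TGF-beta (chromosome 2, 60598292 to 60722643), was close to the limit of detection. It had 4, 0 and 0 fragments in WT and 40, 9 and 32 in Zeb1Prx1, without overlap and with a scaled ratio of 19.3 (counting interval 7.26 to 72.6). All WT fragments came from replicate 1. The related Itgb8, which also partners Itgav, had 28, 103 and 48 fragments against 59, 51 and 243 and overlapped (1.97-fold in mean FPKM, 3.21-fold without WT replicate 2 and 0.859-fold without Zeb1Prx1 replicate 3). Beside these genes, the epithelial list of 7 genes (Epcam, Cdh1, Krt5, Krt8, Krt14, Krt18, Esrp1) summed to 0.0569 to 0.542 FPKM in WT and to 9.59, 3.56 and 21.3 in Zeb1Prx1. Of these, 5 lay higher without overlap, beside 12.6% of tested genes, but 0 reached the filter. Krt8, Esrp1 and Epcam had 0 fragments in each WT library, where few mutant fragments suffice for no overlap. Krt5 was at 0 in all Zeb1Prx1 libraries. Zeb1Prx1 replicate 2 had the lowest mutant sum and was the lowest mutant library for Krt8, Esrp1 and Epcam. It was the highest for Krt18 (0.693, 2.12 and 1.55 FPKM) and Cdh1 (0.218, 0.437 and 0.301). In bulk libraries, more cells of a type and more RNA per cell cannot be told apart, and the part of epithelial cells in these values was not tested.

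**Figure D2:**
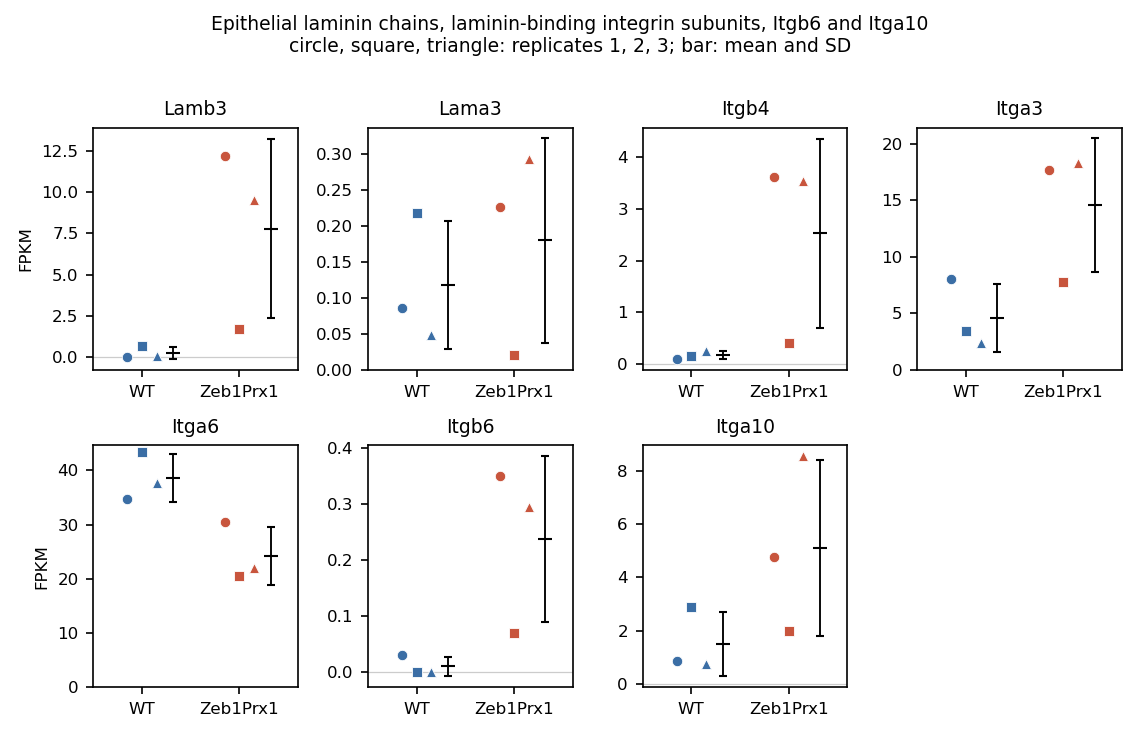
FPKM (y axis) of 7 genes in the 6 libraries, WT in blue and Zeb1Prx1 in red, with replicates as symbols and the mean and SD as bars. For Lamb3, Itgb4 and Itgb6 all red points lie above all blue ones, for Itga6 all lie below, and Lama3, Itga3 and Itga10 overlap.

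Promoter windows of RefSeq on GRCm38.p6 run from 250 bases before to 50 after an annotated start. They are shown for Lamb3, Itgb6 and Itga3, of which Itga3 overlapped between genotypes. Those of the 2 main collagen IV genes, described further on, are shown too. Windows were found for 33 of the 48 members by symbol, 37 windows in all. Zeb1 is known to bind the E-box CAGGTG, which reads CACCTG on the other strand. Either form, on both strands, occurred in 9 of the 37 member windows (24.3%), beside 20.2% of 32851 windows of all genes. Of the 3 members that lay higher without overlap, 2 had windows (Lamb3 and Itgb6), and each had a match in 1 of its 2 windows. Of the 10 that lay lower without overlap, 7 had windows and 1 (Itga9) a match. The other members with a match, Itga3, Itga11, Itgb5, Itgb8, Lama5 and Col4a4, overlapped between genotypes. The 20.2% is a share of windows and no share per gene was taken, so these counts are descriptions. Of the 2 windows each of Lamb3, Itga3 and Itgb6, the one with a match is shown. The E-boxes are in capitals, the rest in lower case, each window 5′ to 3′ on the strand of its gene. The Lamb3 window shown (chr1:193301993-193302292, plus strand), at a start inside the gene as the table bounds it, holds 2 matches, which begin 6 bases before and 4 bases after the start. Itga3 and Lamb3 each have another window with no match. The Itga3 window shown (chr11:95076665-95076964, minus strand) holds 1, beginning 195 bases before the start, and the Itgb6 window shown (chr2:60673644-60673943, minus strand), at a start inside the gene, holds 1, beginning 60 bases before it. The Col4a1 (chr8:11312777-11313076, minus strand) and Col4a2 (chr8:11312555-11312854, plus strand) windows hold none and share 78 bases, since the genes lie head to head. A match is a stretch of letters and not a measured binding site.
Lamb3: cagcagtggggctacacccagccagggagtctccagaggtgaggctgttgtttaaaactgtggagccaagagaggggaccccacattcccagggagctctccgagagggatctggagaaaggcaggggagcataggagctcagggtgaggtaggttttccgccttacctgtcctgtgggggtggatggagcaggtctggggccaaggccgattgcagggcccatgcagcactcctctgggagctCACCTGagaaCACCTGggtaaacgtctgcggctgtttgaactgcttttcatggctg
Itga3: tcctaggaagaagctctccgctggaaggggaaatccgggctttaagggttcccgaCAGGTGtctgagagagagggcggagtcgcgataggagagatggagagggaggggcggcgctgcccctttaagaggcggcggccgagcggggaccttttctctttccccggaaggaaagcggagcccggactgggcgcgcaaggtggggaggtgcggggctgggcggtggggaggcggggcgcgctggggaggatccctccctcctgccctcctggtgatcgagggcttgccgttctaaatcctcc
Itgb6: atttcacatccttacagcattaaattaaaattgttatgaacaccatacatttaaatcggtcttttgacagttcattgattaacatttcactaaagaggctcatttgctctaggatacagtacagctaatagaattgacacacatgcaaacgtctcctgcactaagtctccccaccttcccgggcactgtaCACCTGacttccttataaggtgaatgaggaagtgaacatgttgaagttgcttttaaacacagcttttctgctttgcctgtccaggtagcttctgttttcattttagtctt
Col4a1: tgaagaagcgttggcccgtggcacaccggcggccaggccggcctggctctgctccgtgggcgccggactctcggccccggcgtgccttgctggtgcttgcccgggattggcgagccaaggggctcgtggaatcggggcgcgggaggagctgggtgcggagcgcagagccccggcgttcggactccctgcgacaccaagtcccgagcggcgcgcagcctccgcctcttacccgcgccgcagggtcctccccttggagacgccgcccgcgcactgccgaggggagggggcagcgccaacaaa
Col4a2: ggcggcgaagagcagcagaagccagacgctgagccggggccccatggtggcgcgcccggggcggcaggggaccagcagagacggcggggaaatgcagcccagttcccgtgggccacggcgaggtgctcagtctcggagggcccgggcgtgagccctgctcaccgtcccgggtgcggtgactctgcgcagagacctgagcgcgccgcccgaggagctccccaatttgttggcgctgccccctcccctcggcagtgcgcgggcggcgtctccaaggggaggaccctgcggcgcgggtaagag

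Col4a1, Col4a2 and Nid1 lay lower in each mutant library, although none passed the test, while the other collagen IV genes and Nid2 overlapped. Col4a1 and Col4a2, whose products form the common collagen IV trimer, are transcribed away from each other and overlap by 22 bases at their starts. Col4a1 (chromosome 8, 11198423 to 11312826) had 95.2, 25.5 and 22.2 FPKM in WT against 14.8, 17.6 and 5.80 in Zeb1Prx1. Col4a2 (chromosome 8, 11312805 to 11449287) had 79.8, 30.01 and 26.0 FPKM against 15.4, 16.3 and 8.33. In both genes each mutant library lay below each WT library, WT replicate 1 stood far above the other WT libraries, and Zeb1Prx1 replicate 3 was the lowest. Col4a1 was 0.268-fold in mean FPKM (0.535-fold without WT replicate 1) with a log2 change of -1.63 (SE 0.61, limma adjusted p = 0.304). Col4a2 was 0.295-fold (0.477-fold without WT replicate 1) with a log2 change of -1.56 (SE 0.45, limma adjusted p = 0.275). The ratio of Col4a1 to Col4a2 FPKM was 1.19, 0.848 and 0.854 in WT against 0.962, 1.08 and 0.696 in Zeb1Prx1, and did not differ beyond its spread (difference in means -0.05, exact two-sided permutation test p = 0.7, where 3 against 3 cannot go below 0.1). The summed FPKM of the collagen IV genes did not overlap either (184, 60.4 and 51.9 in WT against 36.4, 38.6 and 19.1 in Zeb1Prx1). The chains of specialised membranes, Col4a3, Col4a4 and Col4a6, had 0 to 25 fragments per library and overlapped. Their scaled ratios were 1.54 (counting interval 0.825 to 2.94), 1.55 (0.801 to 3.09) and 0.665 (0.373 to 1.17), and each interval includes 1.

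Nid1, the nidogen that ties laminin to collagen IV (chromosome 13, 13437551 to 13512269), had 51.8, 19.1 and 29.6 FPKM in WT against 14.6, 9.20 and 3.91 in Zeb1Prx1. As for Col4a1, WT replicate 1 was highest and Zeb1Prx1 replicate 3 lowest, while the order of the other libraries within each genotype was the reverse. The means were 33.5 ± 16.7 and 9.25 ± 5.36 FPKM (0.276-fold, 0.380-fold without WT replicate 1), with a log2 change of -1.79 (SE 0.49, 95% interval -2.96 to -0.62, limma adjusted p = 0.273), the lowest of the tested members. Hspg2, which encodes the heparan sulfate proteoglycan perlecan, had 76.2, 97.9 and 78.8 FPKM in WT against 98.9, 22.5 and 65.4 in Zeb1Prx1. The genotypes overlapped, and replicate 2 alone set most of the difference (log2 change -0.66, SE 0.50, limma adjusted p = 0.514, and -0.06 without Zeb1Prx1 replicate 2). Beside these genes, the endothelial list of 6 genes summed to 2.64 to 3.07 FPKM in WT against 1.27 to 1.99 in Zeb1Prx1, most of it from Vwf, while Pecam1, Cdh5 and Emcn were under 0.2 FPKM in each library. The muscle and pericyte list of 6 genes summed to 1004, 240 and 392 FPKM in WT against 501, 989 and 131 in Zeb1Prx1. Most of this sum came from Acta2, with 988 FPKM in WT replicate 1 and 985 in Zeb1Prx1 replicate 2. In the same libraries Col4a1 had 95.2 and 17.6 FPKM. Other genes of the list had 11.4 and 1.84 (Mcam), 1.23 and 0.0511 (Myh11) and 0.565 and 0.122 FPKM (Rgs5) there. These were highest in WT replicate 1, while Cspg4 was highest in WT replicate 2 and Des in WT replicate 3. The part of vascular cells in these values was not tested.

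**Figure D3:**
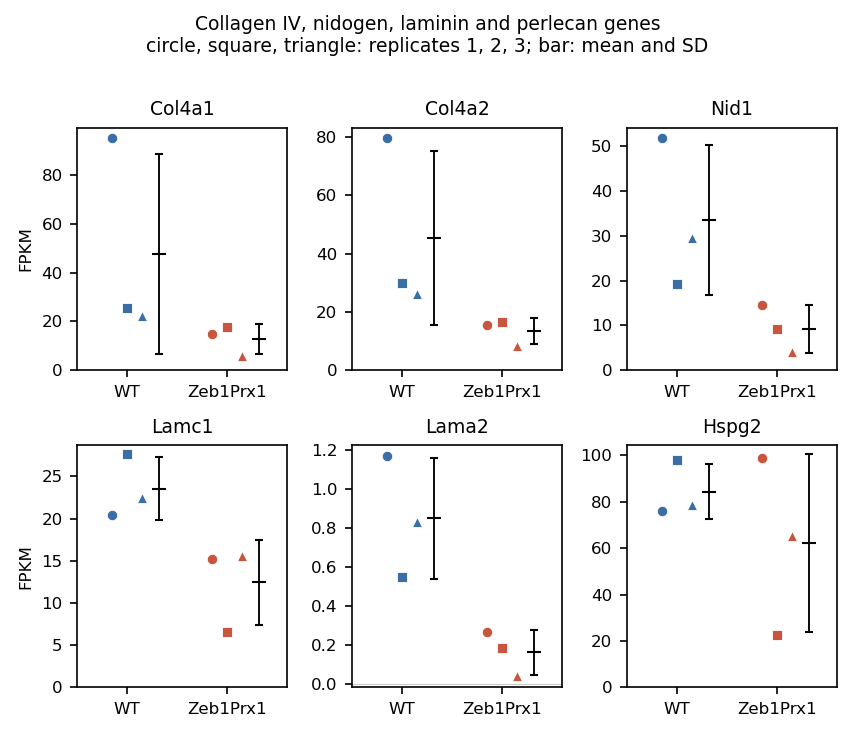
FPKM (y axis) of 6 basement membrane genes in the 6 libraries, WT in blue and Zeb1Prx1 in red, with the mean and SD as bars. Col4a1, Col4a2, Nid1, Lamc1 and Lama2 lie lower in each Zeb1Prx1 library, WT replicate 1 (circle) is highest for Col4a1, Col4a2 and Nid1, and Hspg2 overlaps with replicate 2 (square) lowest.

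The laminin chains typical of mesenchyme and vessels were lower or overlapped. Lamc1, the gamma chain of most laminins (chromosome 1, 153218922 to 153332786), had 20.5, 27.7 and 22.4 FPKM in WT against 15.2, 6.62 and 15.5 in Zeb1Prx1. It did not overlap (23.5 ± 3.72 against 12.5 ± 5.06, log2 change -0.94, SE 0.32, limma adjusted p = 0.291; -0.57 without Zeb1Prx1 replicate 2). Lama2, the alpha chain best known from muscle (chromosome 10, 26980036 to 27619758), was under the filter with 350, 138 and 209 fragments in WT and 70, 55 and 10 in Zeb1Prx1. Each mutant library was lower, and the scaled ratio was 0.185 (counting interval 0.152 to 0.222). Lama4, a chain of vessels and mesenchyme and the most abundant alpha gene here, had 3.27, 7.05 and 10.5 FPKM against 6.002, 3.31 and 4.84 and overlapped (log2 change -0.39, SE 0.37, limma adjusted p = 0.601; -0.20 without Zeb1Prx1 replicate 2). It made up 47.0, 72.1 and 81.5% of summed alpha chain FPKM in WT against 62.8, 74.2 and 51.5% in Zeb1Prx1 (exact permutation p = 0.8). Lama5, a broadly used epithelial and vascular alpha chain, had 1.98, 1.79 and 1.28 FPKM against 2.76, 0.702 and 4.19. Its log2 change of 0.27 (SE 0.40, limma adjusted p = 0.741) turned to -0.07 without Zeb1Prx1 replicate 3. Lamb2, the main beta chain by level, had 17.8, 43.8 and 38.8 FPKM against 25.4, 15.9 and 27.2 and overlapped (log2 change -0.47, SE 0.37, limma adjusted p = 0.525; -0.24 without Zeb1Prx1 replicate 2). Lama1, the embryonic alpha chain, had 26 to 79 fragments in WT and 7 to 46 in Zeb1Prx1 (scaled ratio 0.657, counting interval 0.5002 to 0.859).

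**Figure D4:**
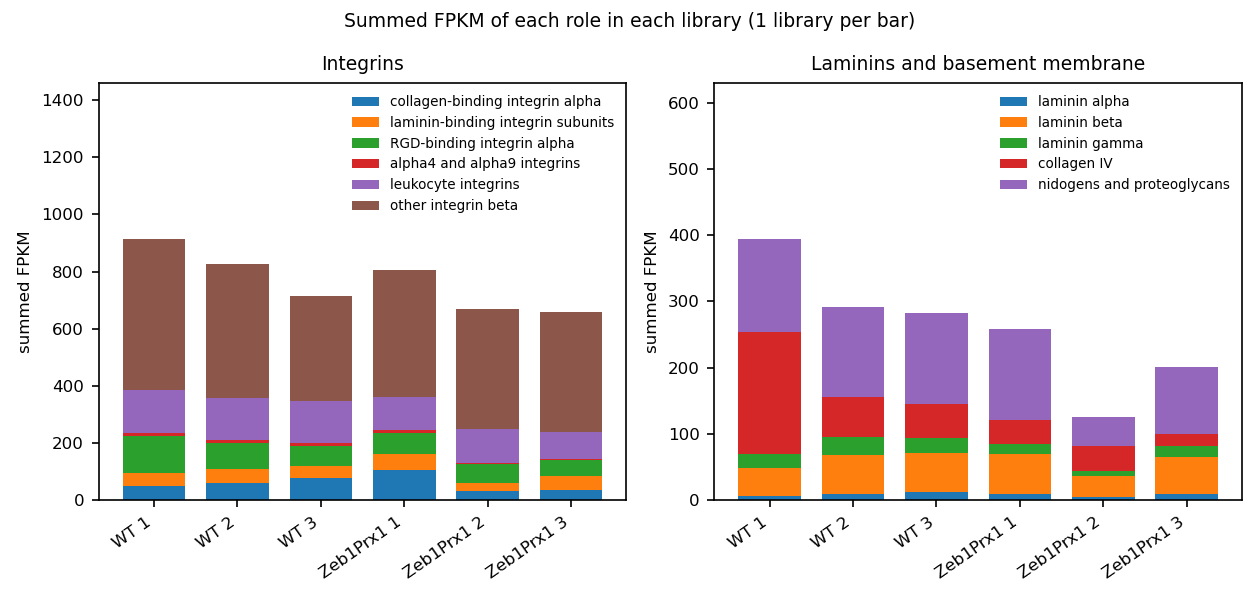
Summed FPKM (y axis) of each role in each of the 6 libraries, 1 bar per library, integrins at left and matrix genes at right. Beta subunits outside leukocytes fill most of the integrin bars, collagen IV is largest in WT replicate 1 (184), and Zeb1Prx1 replicate 2 has the lowest matrix bar.

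Among collagen receptors, Itga10 and Itga11 differed in direction. Itga10, the collagen II receptor of chondrocytes (chromosome 3, 96645584 to 96664519), had 0.853, 2.90 and 0.741 FPKM in WT against 4.78, 1.99 and 8.56 in Zeb1Prx1. WT replicate 2 lay above Zeb1Prx1 replicate 2, so the genotypes overlapped (log2 change 1.24, SE 0.48, limma adjusted p = 0.312). The fold in mean FPKM was 3.41, or 6.41 when WT replicate 2 was left out and 2.26 when Zeb1Prx1 replicate 3 was. The chondrocyte list of 6 genes had a median of 1.58, 1.04 and 2.22 FPKM in WT against 18.4, 3.77 and 80.9 in Zeb1Prx1. Its order of mutant libraries was that of Itga10. WT replicate 2 was the highest WT library for Itga10, the lowest for the list median and the highest for the list sum. These sums were 12.7, 201 and 153 FPKM in WT against 543, 146 and 2322 in Zeb1Prx1. Comp (3.13, 195 and 144 FPKM in WT) made up most of the sum in WT replicates 2 and 3. The part of chondrocytes was not tested. Itga11, the fibrillar collagen receptor of fibroblasts, had 47.7, 52.3 and 73.4 FPKM against 99.7, 27.8 and 23.1. The mutant libraries lay on both sides of WT (0.868-fold, 0.440-fold without Zeb1Prx1 replicate 1, log2 change -0.49, SE 0.53, limma adjusted p = 0.645). Itga2, another collagen receptor, had 154, 46 and 23 fragments against 55, 16 and 49 (0.583-fold in mean FPKM, 1.12-fold without WT replicate 1).

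Receptors for RGD proteins and their beta partners were led by Itgb1, which pairs with more alpha subunits than any other beta gene. Itgb1 was the most abundant member, with 341, 271 and 219 FPKM in WT against 247, 224 and 259 in Zeb1Prx1, and its libraries overlapped (log2 change -0.17, SE 0.22, 95% interval -0.69 to 0.36, limma adjusted p = 0.713). Itgav, the vitronectin receptor alpha (chromosome 2, 83724397 to 83806916), had 56.9, 48.4 and 38.3 FPKM in WT against 35.6, 27.9 and 25.0 in Zeb1Prx1. It did not overlap (47.9 ± 9.31 against 29.5 ± 5.46, log2 change -0.68, SE 0.21, limma adjusted p = 0.278). Its partner Itgb3, which marks osteoclasts and platelets, had 4.78, 4.66 and 3.54 FPKM against 2.38, 3.55 and 2.16. The groups touched at WT replicate 3 and Zeb1Prx1 replicate 2 (log2 change -0.54, SE 0.19, limma adjusted p = 0.298). Beside Itgb3, the osteoclast list of 7 genes summed to 35.9, 47.9 and 45.1 FPKM in WT against 55.2, 72.3 and 65.7 in Zeb1Prx1. Most of this sum was Ctsk. Ctsk and Dcstamp lay higher, and Atp6v0d2 and Mmp9 lower, in each mutant library, and the others overlapped. The part of osteoclasts was not tested. Itgb5, another partner of Itgav, named here after its values were seen, was the second most abundant member, with 140 to 192 FPKM in WT against 147 to 192 in Zeb1Prx1. Itga5, the fibronectin receptor alpha, had 68.9, 42.0 and 31.6 FPKM against 38.9, 36.2 and 30.3 and overlapped (log2 change -0.36, SE 0.29, limma adjusted p = 0.533). Itga8 and the platelet gene Itga2b had 23 to 109 fragments per library and overlapped; of the platelet list, Gp9 and Gp1bb were at 0 in all 6 libraries, while Pf4 had 42.3, 39.3 and 21.6 FPKM in WT against 27.6, 40.3 and 106 in Zeb1Prx1 and overlapped. Itgbl1, the secreted relative, had 3.48, 2.60 and 3.45 FPKM against 2.60, 4.75 and 12.1, where the highest library decided the mean (2.04-fold, 1.16-fold without Zeb1Prx1 replicate 3, log2 change 0.64, SE 0.44, limma adjusted p = 0.472).

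Integrins shared with leukocytes were lower in part. Itga4, the receptor for Vcam1 and fibronectin (chromosome 2, 79255426 to 79333123), had 7.02, 8.84 and 7.40 FPKM in WT against 5.93, 2.18 and 3.37 in Zeb1Prx1, without overlap (log2 change -0.93, SE 0.28, limma adjusted p = 0.275; -0.66 without Zeb1Prx1 replicate 2). Its relative Itga9, a tenascin and osteopontin receptor (chromosome 9, 118606690 to 118901003), had 3.29, 2.87 and 4.17 FPKM against 2.84, 1.22 and 1.12. Itga9 did not overlap by a narrow margin between WT replicate 2 and Zeb1Prx1 replicate 1 (log2 change -0.75, SE 0.26, limma adjusted p = 0.296). Itgb2, the common beta subunit of leukocyte integrins (chromosome 10, 77530252 to 77565708), had 113, 114 and 113 FPKM in WT against 87.2, 85.9 and 66.6 in Zeb1Prx1. The WT values were nearly equal and all mutant values lower (113 ± 0.728 against 79.9 ± 11.5, log2 change -0.51, SE 0.17, limma adjusted p = 0.29). Its macrophage partner Itgam had 24.5, 20.1 and 24.8 FPKM against 15.8, 24.6 and 14.0, and overlapped because replicate 2 was at the WT level (log2 change -0.37, SE 0.23, limma adjusted p = 0.433). As a share of all integrin FPKM, the 8 leukocyte genes made up 16.6, 17.5 and 20.5% in WT against 14.5, 18.1 and 14.0% in Zeb1Prx1, which overlapped (difference in means -2.70 percentage points, exact permutation p = 0.3).

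Beside the leukocyte integrins, 8 of the 10 macrophage genes had a log2 change below 0 (median -0.53), and 5 lay lower without overlap, beside 11.8% of all genes. Adgre1 had 215, 230 and 250 FPKM in WT against 164, 119 and 117 in Zeb1Prx1. The summed macrophage list overlapped. Zeb1Prx1 replicate 2 had the highest sum, most of it from Lyz2, and Zeb1Prx1 replicate 3 (10394 FPKM) also lay above WT replicate 1 (9998). Of the 4 T cell genes, Cd3e, Cd3d and Cd8a had at most 0.0408 FPKM in each library, and Trac 0.139 to 0.993 FPKM in WT and 0.0700 to 1.48 in Zeb1Prx1. The remaining leukocyte genes were sparse or overlapped: Itgae, the partner of Itgb7 in the epithelium-homing integrin, had 5 to 12 fragments per library, and, named after their values were seen, Itgad had 1 fragment in all and Itgb2l 0 (up to 3 fragments in each library remain possible). Which cells the integrin differences lie in was not tested.

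**Figure D5:**
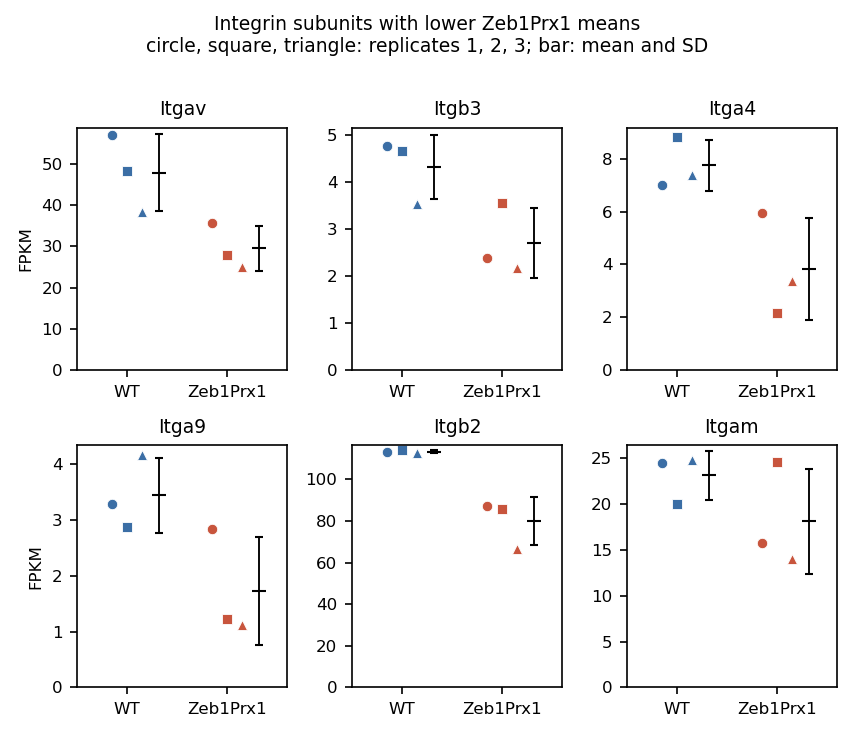
FPKM (y axis) of 6 integrin genes in the 6 libraries, WT in blue and Zeb1Prx1 in red, with the mean and SD as bars. Itgav, Itga4, Itga9 and Itgb2 do not overlap between genotypes, while Itgb3 and Itgam do through Zeb1Prx1 replicate 2 (square).

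The other tested members were Itga1, Itga7, Itgal, Itgax, Itgb5, Itgb7, Lamb1, Col4a5, Nid2 and Agrn. Each overlapped between genotypes, and their adjusted p by limma lay between 0.591 (Itgb7) and 0.998 (Lamb1). Nid2 shares 437 exon bases with Rtraf on the opposite strand (51.5 FPKM in the mean), and without knowledge of strand use its level is uncertain. The gamma gene Lamc3, also named after its values were seen, had 1 to 11 fragments per library.

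The intracellular machinery that links integrins to actin was also measured. Of 35 listed genes in the table (talins, kindlins, parvins, tensins, focal adhesion kinases and others), 32 were tested and 0 passed; 23 had a log2 change below 0, with a median of -0.26, and 10 lay lower without overlap against 0 higher (11.8% and 12.6% of all genes, 20.3% and 4.81% of those of at least 5000 bases). Tns1, a tensin that binds beta subunits, had 8.46, 8.82 and 11.0 FPKM in WT against 3.57, 2.04 and 5.46 in Zeb1Prx1 (log2 change -1.21, SE 0.28, limma adjusted p = 0.259). Talin (Tln1), the main integrin activator, had 111, 108 and 102 FPKM against 92.5, 52.8 and 62.9. Both were lower in each mutant library, as were the tensin Tns3 (log2 change -0.85) and Apbb1ip, an adaptor of leukocytes that recruits talin (log2 change -0.65), and the limma adjusted p of these 4 genes lay between 0.259 and 0.296. Zeb1Prx1 replicate 2 was the lowest library for Tns1, Tns3 and Tln1, which encode long transcripts.

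Of 30 other genes of basement membranes and integrin ligands, 20 were tested and 0 passed, with 10 above 0 and 10 below, and a median of -0.01. Fbln2, a fibulin of basement membranes, had 197, 228 and 211 FPKM in WT against 138, 115 and 92.7 in Zeb1Prx1, and Col18a1, the collagen of vascular and epithelial membranes, 8.72, 12.1 and 10.7 against 6.67, 5.38 and 6.22. Both lay lower without overlap (log2 change -0.89 and -0.69, limma adjusted p = 0.259 and 0.264). Sparc, which binds collagen IV and is abundant in bone, had 690, 890 and 730 FPKM against 1458, 998 and 1927, higher without overlap (log2 change 0.88, limma adjusted p = 0.297). Its relative Smoc1 had 0.922, 2.46 and 5.46 FPKM against 21.1, 5.28 and 80.8 and overlapped (log2 change 2.68, SE 0.90, limma adjusted p = 0.29; 12.1-fold in mean FPKM, 4.48-fold without Zeb1Prx1 replicate 3 and 21.2-fold without WT replicate 3). Fn1, the ligand of Itga5, and Spp1 (osteopontin), named after their values were seen, overlapped (671 to 1223 against 351 to 1945, and 1802 to 4127 against 2669 to 4408 FPKM).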

How the data were processed

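The authors deposited 1 table of FPKM per gene and library, which per the file headers also lists each gene's name, position and length. The submitters' processing notes name the build mm10. No aligner, counter or strand setting was given in the sources used here. The deposited length equals the union of GENCODE M21 exons for all 48 members, 14 of which share exon bases with a gene on the opposite strand. Multiplied by length, all 127408 non-zero values came out as whole fragments (relative tolerance 1e-06).

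The genotype comparison used limma 3.58.1 under R 4.3.3, fitted to log2(FPKM + 1) with a mean-variance trend. Benjamini-Hochberg adjustment covered the 12534 genes that reached an FPKM of 1 in 3 libraries or more. A pseudocount of 1 understates changes of low genes. The script was tested on simulated data. Members under the filter are given by fragments, with exact (Clopper-Pearson) 95% intervals of the ratio after scaling by library totals. Single measures used exact two-sided permutation tests over libraries. Named with the fit were members without overlap, the most abundant and the 2 with the smallest p of each role; members under the filter with 30 or more fragments were given by fragments, and 4 genes of each further list by smallest p. The rule found 1 further gene, which is not reported here. Members and lists were chosen with earlier results of these data known.

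Promoter windows came from RefSeq. Alternatives were other pseudocounts, filters and scalings, a replicate block, no trend, library weights, voom on fragments, and leaving out each library.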

Additional observations from a re-analysis of the deposited data

How the results depend on the processing

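All alternatives were planned except leaving out libraries for the share of Lamb3, whose difference stayed between 10.7 and 18.2 percentage points. With library weights, 268 genes were called higher and 179 lower, and 4 members were called. Without Zeb1Prx1 replicate 2, 1 gene was called higher (0 to 1 over the left-out libraries), and in all other fits 0 genes were called, voom on fragments included. At an unadjusted p under 0.05, 1022 genes were higher and 875 lower, against 614 and 1270 after rescaling to equal FPKM sums, 746 and 1189 with voom, 931 and 1151 with quantile scaling, and 2014 and 1852 with library weights. The equal FPKM sum moved the median of all genes to -0.12 and that of the members to -0.43, with 8 members above 0 and 24 below. The median log2 change was -0.40 for the other integrin beta genes with quantile scaling and -0.055 for collagen IV with no filter. Over the left-out libraries it was -0.34 to 0.18 for laminin beta and -0.72 to -0.0031 for nidogens and proteoglycans (-0.41 with all libraries), the last without Zeb1Prx1 replicate 2. Over the left-out libraries the member median lay between -0.38 and -0.15. Agrn turned from -0.17 to at most 0.051, without WT replicate 3 or Zeb1Prx1 replicate 2. Lama5 turned from 0.27 to -0.074 without Zeb1Prx1 replicate 3 (-0.074 to 0.73 over the left-out libraries). The cause of these changes was not tested, except that filters and left-out libraries change which genes are tested.

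Replicate numbers did not pair the libraries: the correlation of same-numbered deviations was 0.03, -0.41 and 0.08, and not every library correlated best with its own number. With the replicate block, 0 genes and 0 members were called, with 775 genes higher and 572 lower at an unadjusted p under 0.05. Depth limits the genes under the filter, which had 0 to 832 fragments over the 6 libraries or, for Itgb4, 897.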
